A study of Homo sapiens with 6 samples.

Results

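The mRNAs of 10 heat shock proteins were followed across the eIF4B cross-link tables of 2 B-cell lines. They encode the cytosolic chaperones HSP90AA1, HSP90AB1, HSPA8, HSPA1A, HSPA1B, HSPA4 and DNAJB1 and the mitochondrial chaperones HSPA9, HSPD1 and HSPE1. Members were taken where the gene name of a listed position equalled one of these symbols, which gave 10 of the 13668 protein-coding genes with a count in either cell line and 10 of 22125 listed genes of any kind. DoHH-2 is a line from a diffuse large B-cell lymphoma (DLBCL) and GM01953 is a B-cell line derived from disease-free donors and used as the control. No treatment is given in the labels for either, and both were cross-linked with UVC light and underwent iCLIP, an immunoprecipitation that maps protein contacts on RNA to single nucleotides, with an antibody to eIF4B. The labels give 4 replicates of DoHH-2 and 2 of GM01953, but the deposited tables hold each line's replicates pooled, so no SD and no test between the lines could be computed. The lines are not isogenic, and each is 1 established line.

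eIF4B is an initiation factor that stimulates the RNA helicase eIF4A, which unwinds mRNA for the scanning ribosome. Heat shock proteins bind unfolded or partly folded proteins. HSP70 proteins bind short exposed stretches in a cycle driven by ATP and started by J-domain partners such as DNAJB1, HSP90 proteins complete the folding of kinases and receptors, and HSPD1 with its lid HSPE1 forms the closed folding chamber of mitochondria. HSPA8, HSP90AB1 and the mitochondrial chaperones are made in unstressed cells, while HSPA1A, HSPA1B, DNAJB1 and much of HSP90AA1 belong to the heat-inducible response driven by the transcription factor HSF1.

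DoHH-2 held 2033156 cDNA counts at 1179243 positions and GM01953 held 167197 at 78474, a 12.2-fold difference in depth. A position is the nucleotide at which reverse transcription stopped at the cross-link, and its count is the number of cDNAs that ended there. The deposited false discovery rate (FDR) compares a position with shuffled counts of its gene, and positions with an FDR below 0.05 are called eIF4B binding sites below. A gene was called bound when its binding sites held more than 20 counts. All intervals are 95% intervals of counting error and do not include the spread between replicates. No total RNA or control immunoprecipitation was used here, so a high count may come from an abundant mRNA or from frequent binding, and fewer cells expressing a gene cannot be told apart from less RNA per cell.

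The identity of the lines was checked with marker genes. Of 7 B-cell markers, 6 had counts in DoHH-2 and 7 in GM01953, at a summed 889 and 3971 CPM (counts scaled to a table total of 1000000). CD74, the invariant chain of MHC class II, was the most counted of them with 1023 and 359 counts (503 and 2147 CPM). PAX5, a transcription factor of B cells, had 554 and 58 (272 and 347 CPM). MS4A1 had 13 and 152 counts (6.39 and 909 CPM), while CD79B went the other way with 99 and 7 (48.7 and 41.9 CPM). CD22, a B-cell surface receptor, had no count in DoHH-2 and 27 in GM01953. None of the 3 T-cell and 3 myeloid markers had a count in either line. The part of the marker difference in the results was not tested.

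The heat shock mRNAs together held 14332 counts in DoHH-2, or 0.705% of the table (Wilson interval 0.694 to 0.717), and 755 counts in GM01953, or 0.452% (0.421 to 0.485). All 9 members with a count in DoHH-2 were bound, against 33.3% of the coding genes with a count there. In GM01953 4 of 10 were bound, namely HSPA8, HSP90AA1, HSP90AB1 and HSPD1, against 8.34% of coding genes. A stricter limit of more than 50 counts at binding sites left 7 members in DoHH-2 and 3 in GM01953. In GM01953 6 had more than 20 counts at all positions and 7 had at least 1 binding site. The shares of coding genes that pass these other limits were not computed, so the members' numbers at them have no comparison. The rule for a bound gene rests on counts, and most of the members are among the more highly counted genes. In DoHH-2 86.0% of the members' counts lay at binding sites, compared with 48.7% over all coding genes. In GM01953 the shares were 63.3% and 66.1%. HSP90AA1 alone held 42.7% of the members' counts in DoHH-2 and 28.9% in GM01953.

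The HSP90 mRNAs were the most counted members in both lines. HSP90AA1 (chr14:102080742-102139699, minus strand, GRCh38), the heat-inducible cytosolic HSP90, had 6116 counts in DoHH-2 and 218 in GM01953, or 3008 CPM (exact Poisson interval 2933 to 3084) and 1304 CPM (1136 to 1489). It ranked 21 of 13153 coding genes in DoHH-2 and 44 of 10148 in GM01953. HSP90AB1 (chr6:44246166-44253888, plus strand), the constitutive form, had 2788 and 212 counts, or 1371 CPM (1321 to 1423) and 1268 CPM (1103 to 1451). The 2 genes were level in GM01953, where their intervals overlapped, whereas HSP90AA1 was clearly above HSP90AB1 in DoHH-2.

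Among the HSP70 mRNAs HSPA8 (chr11:123057489-123063230, minus strand), the constitutive cytosolic HSP70, led with 2732 counts in DoHH-2 and 159 in GM01953, or 1344 CPM (1294 to 1395) and 951 CPM (809 to 1111). HSPA4 (chr5:133052013-133106449, plus strand), an HSP110-type protein that exchanges nucleotide on HSP70, had 345 and 31 counts, or 170 and 185 CPM. HSPA9 (chr5:138553756-138575675, minus strand), the HSP70 of the mitochondrial matrix, had 838 and 40 counts, or 412 and 239 CPM. The chaperonin HSPD1 (chr2:197486584-197516737, minus strand) had 1013 and 68 counts, or 498 and 407 CPM. Its partner HSPE1 (chr2:197500140-197503449, plus strand) had 307 and 6 counts, or 151 and 35.9 CPM. DNAJB1 (chr19:14514769-14560391, minus strand) had 144 and 13 counts, or 70.8 and 77.8 CPM. In DoHH-2 the intervals of HSP90AB1 and HSPA8 overlapped, as did those of HSPA4 and HSPE1, and every other pair of neighbours in the order was separated by more than counting error. In GM01953 the step from HSPA8 to HSPD1 was the only one between neighbours whose intervals did not overlap.

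The inducible HSP70 genes stood at the other end of the order. HSPA1B (chr6:31827738-31830254, plus strand) had 49 counts in DoHH-2 and 7 in GM01953, or 24.1 and 41.9 CPM. HSPA1A (chr6:31815543-31817946, plus strand) had no position listed in DoHH-2, where 3 counts, the limit taken for a count of 0, are 1.48 CPM. The exact Poisson interval used for the other members reaches 1.81 CPM there. In GM01953 HSPA1A had 1 count, or 5.98 CPM (0.151 to 33.3). These 2 genes are near-identical copies, and their coding sequences of 1923 nt each, without the stop codon, differ at 4 positions (99.8% identity). Neither had a count in the CDS in either line. The 49 HSPA1B counts in DoHH-2 comprised 30 in the 5′ UTR and 19 in the 3′ UTR, and the 7 in GM01953 comprised 4 and 3.

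Much of the sequence of these mRNAs is shared with other places in the genome. A position was called unique when the 31 nt word that starts at the next nucleotide of the mRNA occurs nowhere else in the genome outside the gene. In HSPA1A and HSPA1B 112 of the CDS positions are unique, compared with 203 and 202 in the 5′ UTR and 229 and 335 in the 3′ UTR. In DoHH-2 45 of the HSPA1B counts lay on its 653 unique words, and none on the 112 unique CDS positions. The part of shared sequence in the empty CDS was not tested. Over the 10 mRNAs 39.7% of words (10686 of 26886) recur elsewhere, from 0.970% in HSPA4 and 17.0% in HSPA9 to 50.3% in HSP90AA1, 53.0% in HSPA8, 69.1% in HSPD1 and 76.9% in HSPA1A. Processed pseudogenes are known for most of these genes. In DoHH-2 the members held 681 counts per kb at unique and 245 per kb at repeated positions, and in GM01953 37.7 and 9.17. HSPD1 had 876 counts per kb at unique and 172 at repeated positions in DoHH-2. The counts of HSPA1A, HSPA1B, HSPD1, HSPE1, HSPA8 and both HSP90 mRNAs are therefore uncertain where their copies share the sequence.

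Per kb of unique sequence HSP90AA1 stayed highest in DoHH-2 with 1548 CPM per kb, followed by HSPA8 with 945, HSP90AB1 with 759, HSPE1 with 487 and HSPD1 with 431. HSPA9 followed with 95.5, and HSPA1B, HSPA4 and DNAJB1 lay between 31.7 and 33.9. In GM01953 HSP90AB1 was highest with 782 CPM per kb, before HSP90AA1 with 722, HSPA8 with 694 and HSPD1 with 437. On this scale the short mRNA of HSPE1 moved above HSPA9 and HSPA4 in DoHH-2, and HSPA1B was level with HSPA4.

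The comparison of the lines asked whether the share of eIF4B cross-links on heat shock mRNAs differed between tumour and control B cells. The summed CPM was 1.56-fold higher in DoHH-2 (exact conditional interval 1.45 to 1.68). At binding sites only the summed ratio was 2.70, and for the distinct positions expected at equal depth it was 2.36. Without HSP90AA1 the ratio was 1.26 (1.15 to 1.38). The median ratio of the 9 members whose CPM in the 2 lines summed to at least 20 was 1.23 (range 0.576 to 4.21), and that of 9412 coding genes passing the same minimum was 1.11 (quartiles 0.603 to 1.93). The members' median lay within the quartiles of all coding genes. At binding sites the medians were 2.18 for the members and 0.448 for 8000 coding genes, and at equal depth 2.27 and 1.74. The binding-site medians also carry the share of counts that passed the FDR in each line.

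HSP90AA1 and HSPE1 were the 2 members at least 2-fold higher in DoHH-2, against 23.9% of coding genes, and 0 of 9 were at least 2-fold higher in GM01953, against 20.1%. The HSP90AA1 ratio was 2.31 (2.02 to 2.65). The HSPE1 ratio of 4.21 rested on 6 GM01953 counts and had an interval of 1.91 to 11.6, and 216 of its 307 DoHH-2 counts are also listed under the readthrough gene HSPE1-MOB4. HSPA9 had a ratio of 1.72 (1.25 to 2.43) and HSPA8 of 1.41 (1.20 to 1.67). The intervals of HSP90AB1 (1.08, 0.940 to 1.25), HSPD1 (1.23, 0.958 to 1.59), HSPA4 (0.915, 0.633 to 1.37), DNAJB1 (0.911, 0.516 to 1.75) and HSPA1B (0.576, 0.259 to 1.51) included 1. When only binding sites were counted, 5 of 9 members were at least 2-fold higher in DoHH-2, against 10.9% of coding genes. The share of counts that lay at binding sites enters these ratios. It was 86.0% in DoHH-2 and 63.3% in GM01953 for the members, but 48.7% and 66.1% for coding genes. The part of site calling at unequal depth in this contrast was not tested. The 5 members were HSPA9 (4.02), HSP90AA1 (3.97), HSPA8 (2.60), HSPD1 (2.18) and HSPE1. HSPA4 turned from 0.915 to 1.93, HSP90AB1 had 1.47 and DNAJB1 0.785. A count of 0 was set to 3 counts here, which puts HSPE1, with 274 site counts and 0 in GM01953, at least 9.56-fold higher. For HSPA1B, with 28 and 0, the bound is 0.977 and gives no direction. For the distinct positions expected at equal depth the number was also 5 of 9, against 42.4% of coding genes, with 0 of 9 at least 2-fold higher in GM01953 at either setting (52.5% of coding genes at binding sites and 9.12% at equal depth). The equal-depth measure was 1.67-fold higher in DoHH-2 for the whole tables. Thus the 2 cytosolic HSP90 mRNAs differed from each other in this comparison, and their intervals did not overlap.

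Over all positions, unique or not, the CDS of the heat shock mRNAs took a share of the DoHH-2 counts close to its share of their length. Regions were taken on the MANE Select transcript, the reference mRNA of each gene, and the start and stop codon regions covered the codon with the 50 nt before and after it. The CDS outside those codon regions held 60.4% of the members' DoHH-2 counts (59.6 to 61.2) and 65.6% of the GM01953 counts (62.1 to 69.0). It makes up 61.5% of the length of these mRNAs. That length includes sequence that is not unique, and 903 of 1835 CDS nt are unique in HSPA8 but all 2417 in HSPA4. At unique positions the CDS held 59.1% of the DoHH-2 counts. The CDS share of the unique length was not computed for the members together, so closeness to length is not shown there. Over all coding genes other than histones the CDS held 43.97% and 44.8%, on 43.1% and 42.9% of the length. Per kb the members had 923 counts in the 5′ UTR, 1070 in the start codon region, 493 in the CDS, 756 in the stop codon region and 378 in the 3′ UTR in DoHH-2, and 75.5, 87.5, 27.9, 40.8 and 8.12 in GM01953. With each member weighted equally the CDS share in DoHH-2 was 49.1%, with HSPA1B entering at 0% and HSPE1 at 3.91%. The start codon region held 8.06% of the members' counts in DoHH-2 and 12.7% in GM01953 on 3.78% of the length, compared with 9.34% and 12.8% over coding genes on 2.44% and 2.41%. That excess over length depended on the width of the region. With 25 nt to each side the members' start codon region held 2.28% and 2.82% on 1.95% of the length, whereas that of coding genes held 5.10% and 6.55% on 1.29% and 1.27%. With each member weighted equally the members' region with 50 nt to each side held 14.9% in DoHH-2 and 16.0% in GM01953. The longest coding transcript gave 5.29% and 7.11%. The 3′ UTR held 21.5% of the members' counts (20.8 to 22.2) in DoHH-2 and 8.87% (6.997 to 11.2) in GM01953 on 28.5% of the length, compared with 32.8% and 22.9% over coding genes on 48.2% and 48.5%. The 5′ UTR held 4.39% and 6.90% of the members' counts on 2.39% of the length. Over coding genes it held 8.33% and 13.6% on 3.67% and 3.65%. With each member weighted equally the members' 5′ UTR share was 10.4% in DoHH-2 and 6.16% in GM01953. HSPA1B, 1 of the 9 members in that DoHH-2 mean, raised it with 27 of 49 mRNA counts (55.1%) in the 5′ UTR. Only 62 of its 1820 CDS nt are unique. The coding genes were summed and not weighted equally, so the 10.4% has no like comparison. The longest coding transcript gave 1.20% and 1.90%. HSP90AA1 carried much of the members' difference between the lines in the 3′ UTR. Without it the 3′ UTR share was 13.5% (12.7 to 14.3) in DoHH-2 and 9% (6.79 to 11.8) in GM01953, and HSPA8 went the other way.

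HSP90AA1 had the most 3′ UTR counts of the members in DoHH-2, while in GM01953 HSP90AB1 had 20 and HSP90AA1 18. Its 3′ UTR region held 1896 of 5985 mRNA counts in DoHH-2 (31.7%, 30.5 to 32.9) and 18 of 210 in GM01953 (8.57%, 5.49 to 13.1), and the CDS held 55.6% and 72.9%. The most counted 50 nt in DoHH-2, nt 2308 to 2357 of the mRNA just downstream of the stop codon region, held 1005 counts, or 16.8% of the mRNA (15.9 to 17.8) on 1.55% of its length. In GM01953 the same 50 nt held 7 counts (3.33%, 1.62 to 6.72). The window was picked as the highest in DoHH-2, so a lower value elsewhere is partly set by that choice. Without these 50 nt the 3′ UTR still held 17.9% (16.9 to 19.0) in DoHH-2 and 5.42% (3.05 to 9.44) in GM01953, and the CPM ratio of HSP90AA1 was 1.99 (1.74 to 2.30). These 50 nt held the larger share in DoHH-2, so leaving them out lowered that ratio. T made up 52.0% of these 50 nt and 32.4% of the whole 3′ UTR, and A or T together 86.0% and 60.7%.

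The sequence around the highest position gives the bases at which cross-links were mapped there, without a control immunoprecipitation. It is printed with the highest position of HSP90AB1 in DoHH-2, also in its 3′ UTR, as 21 nt of the transcribed strand with the listed nucleotide in capitals. Positions were read as counting from 0, and a count from 1 would move every capital by 1 nt.
HSP90AA1, 3′ UTR, chr14:102081620-102081640, minus strand: tttctttattTttgttaatat
HSP90AB1, 3′ UTR, chr6:44253815-44253835, plus strand: ttattttattTtcttcatttt
The HSP90AA1 nucleotide lies 82 nt after the stop codon and had 158 counts, with 849 in the 21 nt. In GM01953 it had no count, with 6 in the 21 nt. The 3 neighbours in the same tract, 73, 76 and 83 nt after the stop codon, had 70, 92 and 70 counts in DoHH-2. In GM01953 a nucleotide 37 nt after the stop codon had 12 counts, and the same nucleotide had 35 in DoHH-2. The bin of nt 2251 to 2300 around it held 341 HSP90AA1 counts in DoHH-2, while GM01953 had 24. The stop codon region was the densest region of HSP90AA1 in both lines, with 4864 and 301 counts per kb. The HSP90AB1 nucleotide, 227 nt after the stop codon, had 42 counts in DoHH-2 and 1 in GM01953, with 185 and 8 in the 21 nt. These windows contain 15 and 16 T, which 0.315% and 0.226% of the 26986 windows of 21 nt on the 10 mRNAs reach, and they share a run of 8 nt (tttatttt). Other highest positions lay in windows with fewer T, such as 4 for both genes in GM01953 (73.1% of windows reach that) and, in DoHH-2, 5 for HSPD1 and HSPE1 (58.9%) and 2 for DNAJB1 (94.2%). Some of the others were also rich in T, with 12 for HSPA8 and HSPA1B (1.46%) and 11 for HSPA9 (2.94%) in GM01953. The highest DoHH-2 positions of both HSP90 mRNAs are unique, whereas those of HSPE1 and DNAJB1 are not. In the 50 nt bins that hold the HSP90 peaks, 34 positions are unique for HSP90AA1 and 9 for HSP90AB1. The counts around the HSP90AB1 peak are therefore the less certain of them.

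HSP90AB1 also had a dense 5′ end. Its 5′ UTR region of 45 nt held 285 of 2620 mRNA counts in DoHH-2 (10.9%, 9.74 to 12.1), a density of 6333 counts per kb compared with 792 in the CDS. All 45 nt are unique, compared with 1061 of 2069 CDS nt, and at unique positions the CDS had 1228 counts per kb. In GM01953 it held 35 of 205 counts (17.1%, 12.5 to 22.8), and the start codon region another 17.1% compared with 3.82% in DoHH-2. HSP90AA1 has a 5′ UTR of 59 nt, 9 nt of which lie outside the start codon region, and the first 50 nt of its mRNA held 1.40% of counts in DoHH-2 and 1.43% in GM01953. The first 50 nt of HSP90AB1 held 11.1% (9.92 to 12.3) and 19.0% (14.2 to 24.95). The 2 HSP90 mRNAs thus differed at the 5′ end in the same direction in both lines. The most counted position of HSP90AB1 in GM01953, shown because it lies in the 5′ UTR, had 10 counts there and 7 in DoHH-2. It is nt 56 of the mRNA, within the start codon region and after the first 50 nt.
HSP90AB1, 5′ UTR, chr6:44247146-44247166, plus strand: aaagcaagccTacgttgctca

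The CDS and start codon shares of HSPA8 were alike in both lines. The CDS held 75.2% (73.5 to 76.8) and 75.3% (68.0 to 81.5), and the start codon region 12.7% and 13.6%. Within the CDS the lines differed. The first 25% held 44.8% (42.8 to 46.9) of HSPA8 CDS counts in DoHH-2 and 27.9% (20.7 to 36.4) in GM01953. The 5′ UTR region held 5.82% (4.99 to 6.78) and 1.95% (0.665 to 5.57) of the mRNA counts. In both lines the most counted 50 nt of HSPA8 were the first 50 of the mRNA, with 288 counts (10.9%, 9.75 to 12.1) in DoHH-2 and 18 (11.7%, 7.52 to 17.7) in GM01953. Over coding genes with at least 20 mRNA counts the median share in the first 50 nt was 3.13% (7646 genes) and 0.922% (988 genes), and HSPA8 lay above 83.4% and 78.4% of them. Summed over all members the first 50 nt held 6.05% in DoHH-2, compared with 6.13% over the other coding genes without histones, and 9.58% (7.63 to 11.96) in GM01953, compared with 6.47%. The 3′ UTR of HSPA8, of which 14 nt outside the stop codon region are unique, held 1.55% (1.14 to 2.10) and 6.49% (3.57 to 11.5). The nucleotide with 9 counts in GM01953, 1 of 3 at that count, had 19 in DoHH-2, with 13 and 178 counts in its 21 nt.
HSPA8, 5′ UTR, chr11:123062096-123062116, minus strand: ctcttgggttTtttgtggctt

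**Figure D1:**
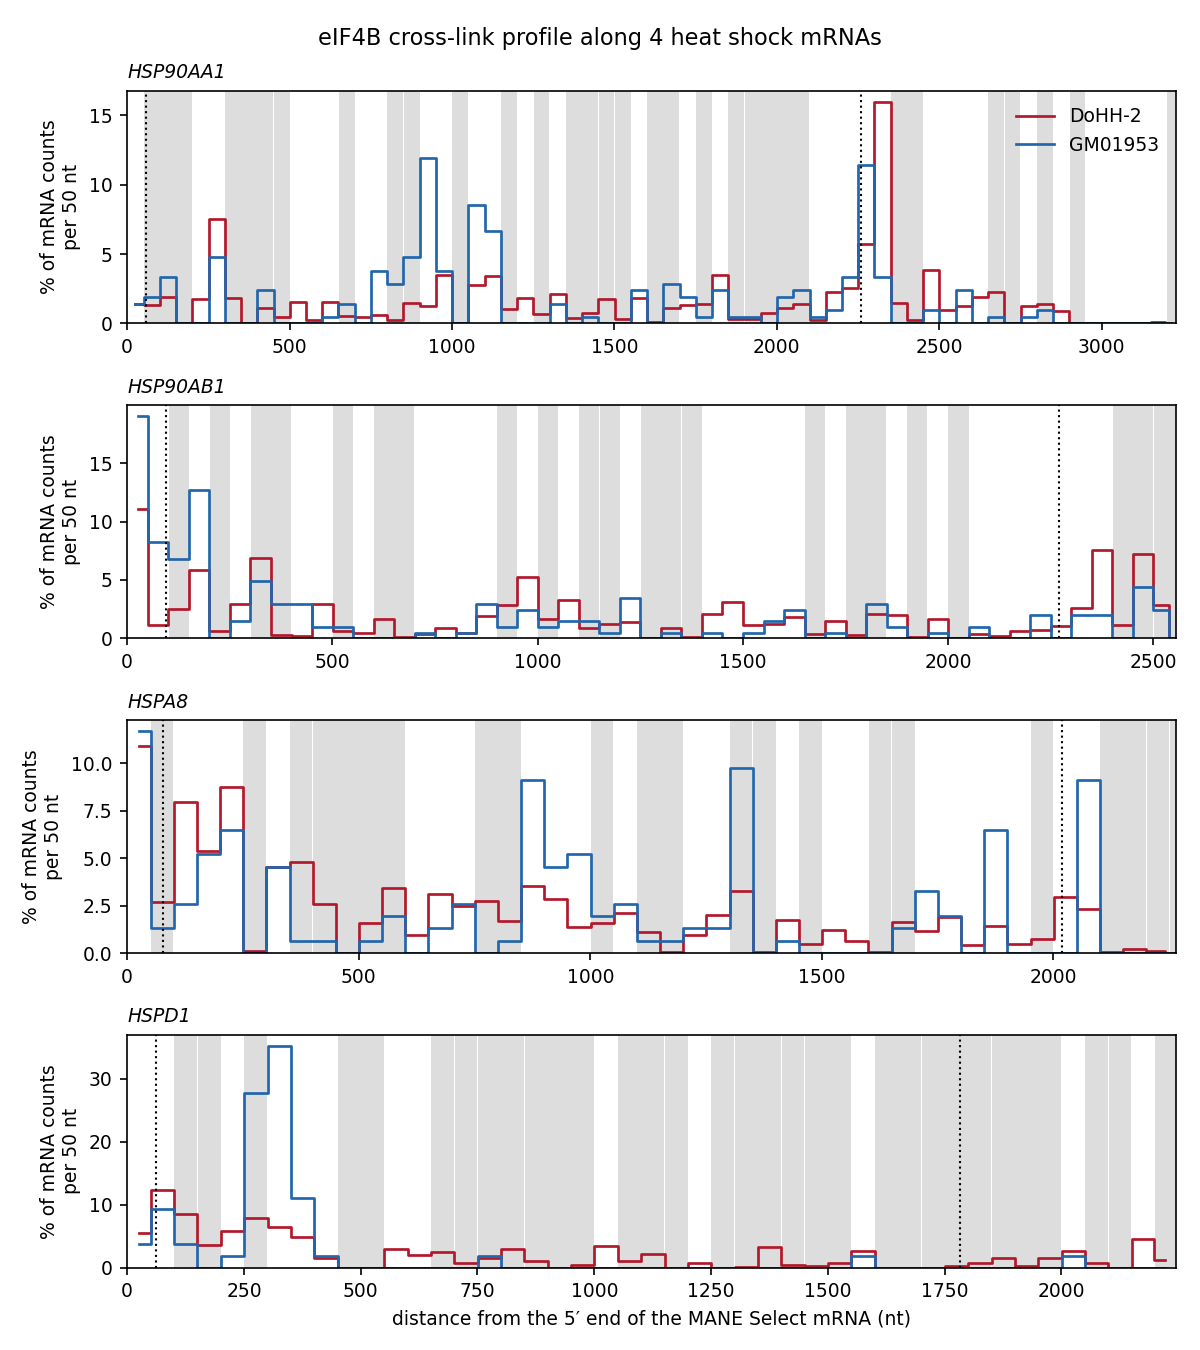
Share of mRNA counts per 50 nt (vertical axis, %) along the MANE Select mRNAs of HSP90AA1, HSP90AB1, HSPA8 and HSPD1 (horizontal axis, nt from the 5′ end) in DoHH-2 (red) and GM01953 (blue). Dotted lines mark the ends of the CDS, and bins with less than 50% unique positions are grey. HSP90AA1 has its DoHH-2 peak after the stop codon, HSPA8 and HSP90AB1 share a peak in the first 50 nt in both lines, and HSPD1 in GM01953 is concentrated near nt 300.

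The highest DoHH-2 positions of HSPA8 and of its mitochondrial relative HSPA9 fell on the same base when the 2 coding sequences were aligned. The coding sequences are 64.5% identical over 1829 aligned nt. The highest HSPA8 position is nt 132 of the CDS with 30 counts, and the highest HSPA9 position is nt 279 with 13 counts, which is the base aligned to HSPA8 nt 132. The 21 nt around it are identical at 14 positions and share a run of 8 nt (gcctttac).
HSPA8, CDS, chr11:123061183-123061203, minus strand: atgtcgccttTacggacactg
HSPA9, CDS, chr5:138571081-138571101, minus strand: ttgtggccttTacagcagatg
In HSPA8 the adjacent nt 131 had 27 counts, and the 3 HSPA9 bases centred on its counterpart held 22. GM01953 had 5 counts at the HSPA8 position and none at the HSPA9 position. The other 4 of the 6 highest HSPA8 coding positions had between 0 and 5 HSPA9 counts within 1 nt of the aligned base. HSPA1B, whose CDS is closer to that of HSPA8 (74.1% identity), is identical to it at 17 of the 21 aligned nt, but it had no CDS count, and most of its CDS is not unique. Among the HSP90 mRNAs, which are 76.1% identical in the CDS, 5 of the 6 highest HSP90AA1 coding positions had between 12 and 35 HSP90AB1 counts within 1 nt of the aligned base. The highest of them, nt 208 with 75 counts, had none. The alignments were made after the highest positions were seen.

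HSPA9 differed from HSPA8 in its distribution. Its CDS held 53.9% (50.4 to 57.3) of 789 mRNA counts in DoHH-2 and its 3′ UTR region of 2231 nt 31.7% (28.5 to 35.0). The most counted 50 nt, nt 386 to 435 in the CDS, held 75 counts (9.51%) and had none in GM01953, where the mRNA had 37 counts in all. In GM01953 15 of these 37 (40.5%, 26.3 to 56.5) lay around the start codon, compared with 77 of 789 (9.76%, 7.88 to 12.03) in DoHH-2. HSPA4, whose mRNA is almost wholly unique, held 72.1% (66.9 to 76.7) of 315 DoHH-2 counts in the CDS. Its 3′ UTR region of 1963 nt held 26 counts in DoHH-2, 13.2 per kb compared with 93.9 in the CDS, and none of 25 mRNA counts in GM01953. The highest HSPA4 position had 8 counts and none in GM01953, and like those of HSPA8 and HSPA9 it was a T that follows other T.
HSPA4, CDS, chr5:133074053-133074073, plus strand: atgtagttttTgtagacatgg

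The mitochondrial chaperonin mRNAs were cross-linked towards their 5′ side. The first 25% of the HSPD1 CDS held 63.1% of its CDS counts in DoHH-2 and 96.1% in GM01953. The most counted 50 nt of HSPD1 in GM01953, nt 280 to 329, held 32 of 54 mRNA counts (59.3%, 46.0 to 71.3), and the same stretch, picked as the highest in GM01953, held 73 of 862 (8.47%) in DoHH-2. In DoHH-2 the most counted 50 nt began at nt 71, just after the start codon, with 146 counts (16.9%, 14.6 to 19.6), and held 6 in GM01953. The highest positions, shown because they lie 48 nt apart in the same part of the CDS, had 26 counts in DoHH-2 with 1 in GM01953, and 10 counts in GM01953 with 2 in DoHH-2.
HSPD1, highest in DoHH-2, CDS, chr2:197497368-197497388, minus strand: gaacagtgatTattgagcaga
HSPD1, highest in GM01953, CDS, chr2:197497320-197497340, minus strand: atggtgtgacTgttgcaaagt
HSPE1 held 163 of its 256 DoHH-2 mRNA counts (63.7%, 57.6 to 69.3) within 50 nt of the start codon, a higher share than 99.8% of 1293 genes with at least 200 mRNA counts, on an mRNA of 557 nt. Of the HSPE1 words 64.5% recur elsewhere, unevenly, with 73 of 103 nt unique around the start codon and 15 of 203 in the rest of the CDS. At all positions these regions had 1583 and 49.3 counts per kb, and at unique positions 1370 and 667. The 4 mRNA counts in GM01953 give no profile. DNAJB1 held 54.9% (46.4 to 63.1) of 133 DoHH-2 counts in the CDS and 32.3% (24.97 to 40.7) in the 3′ UTR, and of 13 counts in GM01953 the CDS held 9, the 3′ UTR 3 and the start codon region 1. A single CDS nucleotide, nt 789 of the mRNA, held 6 of the 13, and had 1 in DoHH-2.

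Within the CDS the summed counts of the members were higher in the 5′ than in the 3′ parts. The 4 parts of equal length held 39.0%, 26.7%, 16.7% and 17.7% of CDS counts in DoHH-2, and 38.5%, 31.5%, 15.0% and 15.0% in GM01953. The other coding genes without histones gave 36.7%, 23.9%, 19.9% and 19.5%, and 42.8%, 22.6%, 17.3% and 17.2%. At unique positions only, the DoHH-2 densities of the members were 1298, 899, 631 and 542 counts per kb from the first part to the last. Coding genes in general thus had the higher 5′ share too. Members differed, since in DoHH-2 DNAJB1 had 18.8%, 32.5%, 25% and 23.8% of 80 CDS counts in the 4 parts and HSP90AA1 had 29.4%, 27.0%, 18.5% and 25.2%, and in GM01953 the second part was the highest for HSP90AA1 (55.8%) and HSPA8 (34.4%). The first codon base held 40.1% of the members' CDS counts in DoHH-2 and 41.6% in GM01953, compared with 37.0% and 39.8% over the other coding genes.

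The cross-linked nucleotide was most often T. It was T for 45.1% of the members' mRNA counts in DoHH-2 (42.8% in GM01953), on mRNAs with 25.8% T (25.6%), and the following base was T for 47.7% (42.5%). The other coding genes gave 44.3% and 40.1% at the cross-link. UV cross-linking is known to favour uridine, and the T excess was of like size in the members and in the other coding genes. Purines made up 48.7% of the 10 nt to each side in DoHH-2 and 50.9% in GM01953, below the 54.7% and 54.4% of the whole mRNAs. The other coding genes also had a lower purine share at cross-links (47.4% and 46.7%) than on the whole mRNA (51.2% and 50.8%).

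Most GM01953 positions on heat shock mRNAs were also found in DoHH-2. The lines had 296 positions in common, which are 78.5% of the 377 in GM01953 and 6.52% of the 4542 in DoHH-2. Over the whole tables the shares were 33.0% and 2.19%. The 3 mRNAs with the most DoHH-2 positions had the highest overlap, with 92.7% of GM01953 positions in HSP90AA1, 88.5% in HSP90AB1 and 80.3% in HSPA8. The others did not follow the number of DoHH-2 positions, with 44.4% in HSPA9 (517 positions), 75% in HSPD1 (496), 28.6% in HSPA4 (259), 50% in HSPE1 (121) and 57.1% in DNAJB1 (119), the last 2 on 4 and 7 GM01953 positions. The share of mRNA nucleotides counted in DoHH-2 was 36.3% for HSP90AA1, 34.5% for HSPA8, 29.8% for HSP90AB1 and 17.6% for HSPD1. It was 15.8% for HSPE1, 10.8% for HSPA9, 4.92% for HSPA4 and 4.86% for DNAJB1. Overlaps fell roughly in this order, except for DNAJB1 and HSPA1B (1.31%, overlap 33.3% on 6 positions). The part of DoHH-2 coverage in the overlap was not tested. Of the 163 GM01953 binding sites 134 (82.2%) were binding sites in DoHH-2 at the same nucleotide, and these were 4.59% of the 2921 DoHH-2 sites. The overlap of binding sites over all genes was not computed, so these shares have no comparison.

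Few counts fell outside the reference mRNAs. In DoHH-2 677 of 14332 member counts did so. HSPE1 had the largest share with 51 (16.6%), 47 of them in exons of other transcripts. HSPD1 had 151 (14.9%), 109 of them in exons of other transcripts, and HSP90AB1 had 168 (6.03%), 133 of them in introns. HSPA8 hosts small nucleolar RNA genes in its introns, and 16 of its 86 counts outside the mRNA lay in SNORD14C, SNORD14D or SNORD14E. On the strand opposite to the member mRNAs 3 counts were found in DoHH-2 and 0 in GM01953.

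Other genes of chaperone pathways were described from lists. Of 54 co-chaperones, regulators and further heat shock proteins, 35 were bound in the DLBCL line and 3 in the control line (coding genes 33.3% and 8.34%), and the median CPM ratio of the 48 that passed the minimum was 1.20, with 10 at least 2-fold higher in DoHH-2 and 2 in GM01953 (coding genes 23.9% and 20.1%). TRAP1, the HSP90 of mitochondria, had 517 and 11 counts, a ratio of 3.87 (2.14 to 7.79). HSPH1, a cytosolic HSP110, had 651 and 30 counts (1.78, 1.24 to 2.67), and the mitochondrial protease LONP1 578 and 31 (1.53, 1.07 to 2.28). STIP1, which links HSP70 to HSP90, had 531 and 44 counts (0.992, 0.729 to 1.38). The HSP90 co-chaperone PTGES3 had 520 and 64 counts (0.668, 0.515 to 0.880), PPP5C, a phosphatase that binds HSP90, had 225 and 32 (0.578, 0.398 to 0.866), and the small heat shock protein HSPB1 had 354 and 39 (0.746, 0.535 to 1.07). Of the 8 subunits of TRiC, the cytosolic chaperonin, all 8 were bound in the DLBCL line and 2 in the control line, with a median ratio of 1.81 and 3 at least 2-fold higher in DoHH-2. Of 14 chaperones of the endoplasmic reticulum 12 and 8 were bound, with a median ratio of 1.23.

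By the shares of the 5 regions in DoHH-2, the genes most like HSP90AA1 among 1293 with at least 200 mRNA counts were YARS1, RPL13A and JAK1. Their summed absolute differences from HSP90AA1 were 6.60, 8.44 and 9.68 percentage points, and each held between 29.4% and 32.5% of its counts in the 3′ UTR.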

How the data were processed

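eIF4B iCLIP tables of DoHH-2 (4 labelled replicates) and GM01953 (2) were used, each a pool of its replicates. The values are cDNA counts of each cross-linked nucleotide as the authors deposited them, after removal of PCR duplicates (BBMap), demultiplexing (Je), mapping to GRCh38 (HISAT2), pooling of replicates and counting (iCount). The FDR, an adjusted p-value for each position, was deposited by the authors from permutations within the gene. Tool versions and annotation release are not given in the sources used here. Nothing was normalized before deposit.

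Deposited positions were read as counting from 0, and 1 was added, since the highest T share then lay at the same place on both strands, 1 nt downstream of the listed nucleotide. The sources used here do not state the convention. CPM are counts scaled to a table total of 1000000, with each position counted once. Members were matched by gene name. Regions came from MANE Select transcripts of GENCODE 44. Words of 31 nt were searched in 3209286105 genome bases. Wilson, exact Poisson and exact conditional binomial 95% intervals were computed with scipy 1.17.1, and alignments with Biopython 1.88, and the steps were tested on simulated data. No test between the lines was made, since each line is 1 pooled table. The columns hold no single sample.

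The members and gene lists were chosen with earlier results of these data known. The named genes were the 10 members, the highest position of each, the 5 most counted of the chaperone list in each line, those past 2-fold among its 10 most counted, and the 3 genes nearest to HSP90AA1 in region shares. YARS1, RPL13A and JAK1 came from that last rule. The HSPA8 and HSPA9 alignment, the HSP90AA1 window and the pseudogenes were chosen after their values were seen. Alternatives covered binding sites only, exons only, another transcript, narrower codon regions, equal weights, unique positions, other count limits, other window lengths and equal depth.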

Additional observations from a re-analysis of the deposited data

Results flagged for a closer look

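Counts were also listed under pseudogenes named after the members, which the comparisons above do not use. In DoHH-2 260 counts lay on 33 such pseudogenes, with 47 on HSPA8P8, 25 on HSPD1P5 and 21 on HSPD1P1. In GM01953 25 counts lay on 12. They attracted notice as signal outside the main measurement, above the 3 counts that a count of 0 allows. How many of them came from the member mRNAs was not tested.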

How the results depend on the processing

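No paired analysis was possible because the tables carry no replicate columns, and for the same reason no replicate was left out. No member whose interval excluded 1 changed direction. Of 87 recomputed main values 39 stayed within counting error and these 48 did not. The cause of each shift beyond the change of positions, transcript or weights itself was not tested.

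The members' share of counts in DoHH-2 was 1.39% at binding sites, 0.672% on MANE Select exons, 0.404% without HSP90AA1, 0.693% without positions listed under several genes and 0.543% at unique positions, and in GM01953 0.514% at binding sites, 0.321% without HSP90AA1 and 0.365% at unique positions. In GM01953 7 members were bound when a single binding site sufficed, a limit at which the share of coding genes was not computed. The summed ratio was 1.26 without HSP90AA1, 2.70 at binding sites and 2.36 for positions expected at equal depth, where the whole tables gave 1.67, and both settings put 5 members past 2-fold in DoHH-2. The HSP90AA1 ratio was 1.99 without its most counted 50 nt, an alternative chosen after seeing the data, 3.97 at binding sites and 3.03 at equal depth. Further single ratios moved at binding sites, to 2.60 for HSPA8, 4.02 for HSPA9, 1.93 for HSPA4, 1.47 for HSP90AB1 and 2.18 for HSPD1, and at equal depth to 2.68 for HSPA8, 1.73 for HSP90AB1 and 2.27 for HSPD1. HSPA4 (1.93 and 1.302, and 1.04 on MANE Select exons) and, at equal depth, DNAJB1 (1.66) thereby crossed 1, which their intervals had included. HSPA1B had 28 site counts and 0 in GM01953, a bound of 0.977.

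Region shares in DoHH-2, from the 5′ UTR through start codon, CDS and stop codon to the 3′ UTR, were 6.60%, 2.28%, 64.8%, 2.69% and 23.7% with codon regions of 25 nt, and 10.4%, 14.9%, 49.1%, 5.03% and 20.4% with each member weighted equally. Without HSP90AA1, chosen after seeing the data, the 3′ UTR held 13.5%. With the longest coding transcript the 5′ UTR held 1.20%, the start codon 5.29%, the CDS 65.0% and the 3′ UTR 22.5%. At binding sites the start codon held 8.66%, the CDS 58.4% and the 3′ UTR 22.5%, and at unique positions the 5′ UTR 5.39%, the CDS 59.1% and the stop codon 6.55%. In GM01953 codon regions of 25 nt gave 12.7%, 2.82%, 70.4%, 1.41% and 12.7%, the longest transcript gave 1.90%, 7.11% and 74.4% for the 5′ UTR, start codon and CDS, and equal weights gave 16.0% and 4.39% for the start and stop codons. The purine share in DoHH-2 was 46.7% and 50.7% with 5 and 20 nt to each side and 51.8% with each position counted once.

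Depth limits GM01953, where HSPA1A, HSPA1B, HSPE1 and DNAJB1 had at most 13 counts each.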
